A study of Mus musculus with 6 samples.

Results

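The genes described here are the zinc finger genes whose array name begins with Zfp and whose probe starts between base 15000000 and base 35000000 of mouse chromosome 7 (build mm9), a stretch that also holds Gipr. This rule found 59 probes for 36 genes, out of 55681 different non-control probes on the array. Testing required that all 3 arrays of either genotype read the probe well above background, as the image software defines it. In this way 50 probes of 34 genes were tested, out of 38884 tested probes in all, and 48 of the 50 were well above background on all 6 arrays. The other 9 probes were not tested: the only probe of Zfp109 and of Zfp575, 1 probe each of Zfp111, Zfp93, Zfp61 and Zfp420, and 3 of Zfp74. The family was selected on the knockout against wild-type values of these same arrays, so its differences are given as a description and carry no p-value.

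The arrays measured whole-testis RNA of Gipr-/- and Gipr+/+ mice, all C57BL/6 and 8 weeks old, with 3 animals of each genotype and 1 array per sample. Gipr encodes the receptor for the gut hormone GIP. Beyond the genotype, the labels state neither which part of Gipr was targeted nor how either group was bred. In RNA from a whole organ, fewer cells of a type and less RNA per cell cannot be told apart.

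Zinc fingers of the Cys2His2 type are short folds in which a pair of cysteines and a pair of histidines hold a zinc ion, and a row of them reads DNA sequence. Mammalian genomes carry a large number of such genes, many in tandem clusters that arose by duplication, and most cluster genes also encode a KRAB domain. KRAB domains recruit Trim28 (KAP1) and, through it, the histone methyltransferase Setdb1 and heterochromatin proteins, which silence transposable elements and some genes. Many of the family are transcribed in male germ cells. Which members encode a KRAB domain was not examined, and some genes here are not of that kind. Zfp36 (tristetraprolin) has fingers of another type and binds AU-rich messenger RNA, Zfp541 belongs to a chromatin complex of spermatocytes, and Zfp146 (OZF) consists of little besides its fingers.

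Copies in a cluster can resemble each other, so the sequence of each 60-base probe was examined first. A fragment of the finger consensus or of the linker that joins fingers, read in a frame without a stop, was found in 10 of the 59 probes (16.9%). The share was 10.1% of the 79 Zfp probes elsewhere on chromosome 7, 10.3% of the 438 on other chromosomes and 0.158% of the 55092 probes of other names. The following 6 are shown because results below rest on them. Each is written 5′ to 3′ as in the deposited files, capitals mark the finger or linker fragment, and positions are counted in the gene's transcript.
Zfp114, position 1831: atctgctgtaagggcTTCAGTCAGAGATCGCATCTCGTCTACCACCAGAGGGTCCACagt
Zfp93, position 2275: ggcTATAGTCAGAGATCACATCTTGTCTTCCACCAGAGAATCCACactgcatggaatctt
Zfp93, position 1708: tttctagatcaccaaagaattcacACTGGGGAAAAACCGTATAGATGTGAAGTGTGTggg
Zfp74, position 2203: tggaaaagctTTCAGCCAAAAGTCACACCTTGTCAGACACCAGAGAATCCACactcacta
Zfp940, position 1773: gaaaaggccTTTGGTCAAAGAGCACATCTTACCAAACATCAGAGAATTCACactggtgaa
Zfp420, position 1791: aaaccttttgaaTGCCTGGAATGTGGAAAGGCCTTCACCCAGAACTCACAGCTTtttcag
The probe of Zfp114 and the Zfp93 probe at position 2275 were the most alike of all pairs from different genes over ungapped alignments of at least 40 bases, with 40 of 48 aligned bases the same (83.3%). Next came Zfp940 with a Zfp14 probe (28 of 40 aligned bases, 70.0%) and Zfp74 with Zfp93 (37 of 53, 69.8%). Zfp93 and Zfp114 lie in the same cluster, and how far RNA of one binds the probe of the other was not tested.

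The promoters of the family were compared next, from RefSeq sequence on build GRCm38.p6, which runs from 250 bases before each annotated start to 50 bases after it. A promoter was found for 31 of the 36 genes, with 33 entries because Zfp111 and Zfp27 have 2 starts each. Promoters were matched by the array's gene name, and Zfp114, Zfp574, Zfp575, Zfp607 and Zfp568 had no entry under it. The current name of Zfp607, Zfp607a, was not searched, and an entry of that name would count among the other Zfp genes. A 13-base motif, ACTACANNTCCCA, which is known as the core of the element bound by ZNF143 (STAF), was searched on both strands after the sequences had been read. It was present in 17 of the 33 member promoters (51.5%), each of a different gene. The same motif was present in 41 of 375 promoters of other Zfp genes (10.9%) and in 484 of 32851 promoters of all genes (1.47%). The promoters below lie 100 bases before the start, are written 5′ to 3′ on the strand of the gene, and carry the motif in capitals on either strand. They are shown for 4 genes with the motif and for Zfp296 and Zfp94, which had no exact match. Only exact matches were counted, and the Zfp94 promoter shown holds stretches that differ from the motif by a single base.
Zfp93, chr7:24270318-24270417, plus strand: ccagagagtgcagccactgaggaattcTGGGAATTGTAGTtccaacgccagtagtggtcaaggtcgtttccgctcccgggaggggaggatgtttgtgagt
Zfp260, chr7:30094976-30095075, plus strand: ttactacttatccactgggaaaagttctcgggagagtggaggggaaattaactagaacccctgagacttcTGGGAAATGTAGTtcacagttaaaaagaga
Zfp111, chr7:24208150-24208249, minus strand: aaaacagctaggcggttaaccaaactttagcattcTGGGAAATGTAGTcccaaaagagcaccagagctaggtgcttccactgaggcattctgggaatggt
Zfp420, chr7:29859912-29860011, plus strand: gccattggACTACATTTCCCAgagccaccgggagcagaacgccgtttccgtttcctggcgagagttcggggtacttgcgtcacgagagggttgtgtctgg
Zfp296, chr7:19577187-19577286, plus strand: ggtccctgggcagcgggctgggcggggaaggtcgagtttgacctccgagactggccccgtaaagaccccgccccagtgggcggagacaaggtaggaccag
Zfp94, chr7:24316667-24316766, minus strand: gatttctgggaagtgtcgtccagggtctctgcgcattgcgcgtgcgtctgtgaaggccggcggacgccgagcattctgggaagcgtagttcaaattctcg
Of the 20 matches in the member promoters, 14 lay within the 100 bases before the start, 5 reached farther upstream and 1 lay after it. The Zfp112 promoter held 3 matches and the Zfp108 promoter 2. These are letter matches, not measured binding. The full cAMP response element, TGACGTCA, the same letters on both strands, was in 0 of the 33 promoters, in 4.0% of the other Zfp promoters and in 1.79% of all. Its core TGACG, searched on both strands and contained in the full element, was in 18.2%, 30.1% and 20.8%. The median GC content was 54.0% in the members, 55.3% in other Zfp promoters and 52.7% in all, and the median ratio of observed to expected CpG was 0.59, 0.63 and 0.38.

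**Figure D1:**
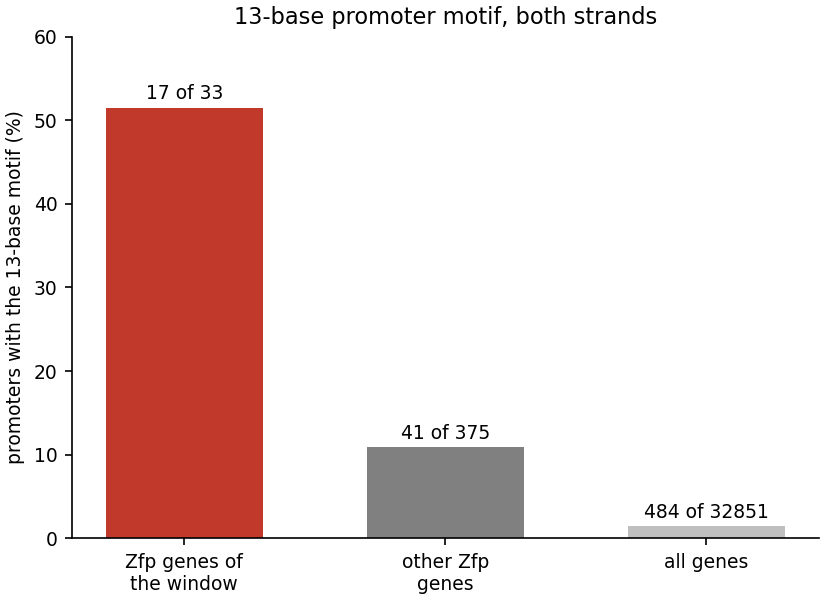
Share of 300-base promoters (%, bars from 0) that hold the 13-base motif on either strand, for the zinc finger genes of the chromosome 7 window, other Zfp genes and all genes, with counts above the bars. The motif was in 17 of 33, 41 of 375 and 484 of 32851 promoters.

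The arrays were closely correlated over the tested probes, which are not independent replicates. Correlations were 0.9955 to 0.9966 within a genotype and 0.9941 to 0.9966 across genotypes. Single genes could still vary widely between arrays of the same genotype, as adipose markers did (below). The Gipr probe read 154.5, 144.9 and 176.2 in the knockout, against 781.9, 820.4 and 1042.5 in the wild type, 5.58-fold lower after scaling (limma adjusted p = 0.0031). Whether it lies in the targeted part is not stated. All 6 arrays lie on 1 slide, with knockout in row 1 and wild type in row 2, so row and genotype cannot be told apart. Of the defining markers, every gene listed for spermatogonia (7), spermatocytes (6), round spermatids (5), elongating spermatids (6) and Sertoli cells (7) was tested. The 6 matched Leydig cell markers had a median difference of -0.58, each with the lower mean in the knockout and 0 called by limma (1 at an unadjusted p under 0.05). Their summed level was 13.9 to 26.1 in the knockout and 25.6 to 30.6 in the wild type, relative to each array's 75th percentile of signal. Of the 7 Sertoli cell markers 5 had the higher mean in the knockout, with a median difference of 0.10, 0 called by limma and 3 at an unadjusted p under 0.05. Their summed level was 308 to 321 in the knockout and 293 to 296 in the wild type. Such a sum weights bright probes most, here Clu (-0.01 ± 0.06) and Rhox8 (0.24 ± 0.07), and is no level of the cell type. Among the 3 Sertoli markers at an unadjusted p under 0.05, Amh (0.62 ± 0.25) was dim and well above background on only 3 arrays. Amh was therefore tested through 1 genotype alone. Of the 5 round spermatid markers 4 had the lower mean, with a median of -0.14 and 0 called by limma (0 at an unadjusted p under 0.05). The mean was higher in the knockout for all 5 peritubular myoid markers (median 0.10) and for 5 of 6 spermatocyte markers (median 0.07). It was higher for 2 and lower for 1 of the 3 tested erythroid markers (median 0.53). Directions were mixed for spermatogonia (4 lower, 3 higher), elongating spermatids (4 lower, 2 higher), macrophages (3 lower, 2 higher) and endothelium (2 lower, 3 higher). Of the 3 tested adipose markers, Fabp4 varied most between arrays of the same genotype (log2 SD 3.91 for knockout, 3.03 for wild type). Adipoq varied little (0.16 and 0.23). Cfd, not tested and well above background on only 3 arrays, had SDs of 5.96 and 5.23. The summed adipose level ran from 2.88 to 16.5 among knockout arrays and from 3.15 to 13 among wild-type arrays. Adipose content thus may not have been uniform within either genotype. The part of these markers in the zinc finger results was not tested.

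Below, signals are processed signals on the linear scale, given for knockout replicates 1, 2 and 3 and then wild-type replicates 1, 2 and 3. Each difference is the knockout mean minus the wild-type mean in log2 units, after each array was brought to its own 75th percentile, with the moderated standard error (SE) of the limma fit over all tested probes. A probe counts as called at an adjusted p under 0.05. Signals of different probes are not on one scale and are not set against each other.

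In this family, 6 probes of 4 genes were called, and all 6 were lower in the knockout. They read Zfp93, Zfp27, Zfp114 and Zfp296. That is 6 of the 50 tested, where 0.0463% of all 38884 tested probes were called (0.0411% lower, 0.00514% higher). Since the genes were chosen with this contrast known, nothing further is read from that count. Leaving out any 1 library lowered the count: 0 member probes were called without knockout replicate 1, 1 without knockout replicate 2, 3 without knockout replicate 3, 2 without wild-type replicate 1, 1 without wild-type replicate 2 and 2 without wild-type replicate 3. Zfp27 was called in all of these fits except that without knockout replicate 1. In them the differences of the 6 probes ran from -1.532 (Zfp93) to -0.865 (Zfp114). The part of the smaller number of arrays in the lower counts was not tested.

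Zfp93, on the plus strand at chr7:25061579-25061638 for its brighter probe, gave signals of 571.2, 458.9 and 630.3 in the knockout and 1502.5, 1505.3 and 1428.3 in the wild type. All 3 knockout arrays lay far below all 3 wild-type arrays, with the wild-type arrays closely grouped. The difference was -1.44 ± 0.10 (SE, n = 3 each), or 2.72-fold lower. Its second probe, at chr7:25061012-25061071, read 54.2, 41.6 and 55.5 against 118.8, 105.0 and 115.1. That probe also separated the genotypes fully, at -1.19 ± 0.10 or 2.28-fold lower. Knockout replicate 2 was the lowest array on both probes. Another background correction, normexp with 50 added to every signal, gave -0.64 for the dimmer probe and -1.36 for the brighter.

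Zfp114 lies on the same strand, 5224.4 kb from the Gipr probe against 5319.1 kb for Zfp93, and its brighter probe is the one that resembles that of Zfp93. At chr7:24966933-24966992 it read 105.7, 105.8 and 119.3 in the knockout and 201.5, 194.0 and 226.6 in the wild type. The genotypes did not overlap, and the difference was -0.92 ± 0.08 or 1.90-fold lower. The other Zfp114 probe, at chr7:24967368-24967426 and placed in a different transcript by the files, read 34.8, 27.5 and 28.3 against 34.2, 28.9 and 43.7. Its genotypes overlapped, with a difference of -0.24 ± 0.15. That value was -0.10 without wild-type replicate 3, -0.37 without wild-type replicate 2 and -0.05 with array weights. The 2 Zfp114 probes thus differed by 0.69 on the log2 scale, the widest gap within any member gene, and their mean gave -0.58. The Zfp74 probe, next in likeness to that of Zfp93, read 83.2, 64.4 and 82.0 against 86.7, 59.9 and 72.3, with overlapping genotypes and a difference of 0.06 ± 0.15.

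Zfp27 lies on the minus strand and was read by 2 probes. The probe at chr7:30679753-30679812 gave 26.5, 24.8 and 24.3 in the knockout and 59.5, 57.7 and 62.6 in the wild type, a difference of -1.26 ± 0.06 or 2.40-fold. The probe at chr7:30678377-30678436 gave 25.9, 25.8 and 30.1 against 62.0, 58.3 and 62.7, a difference of -1.18 ± 0.08 or 2.26-fold. Both probes kept the genotypes fully apart, and their differences lay 0.09 apart. Both are dim, and under normexp the differences were -0.48 and -0.52 in the same order.

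Zfp296, which interacts with pluripotency factors in embryonic stem cells, was the nearest to Gipr of the 4 called member genes, 423.5 kb from the Gipr probe. Its single probe, at chr7:20165945-20166004 on the plus strand, read 448.0, 382.4 and 420.0 in the knockout and 908.1, 982.9 and 1086.1 in the wild type. The lowest wild-type array lay well above the highest knockout array. The difference was -1.26 ± 0.07, or 2.40-fold lower.

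**Figure D2:**
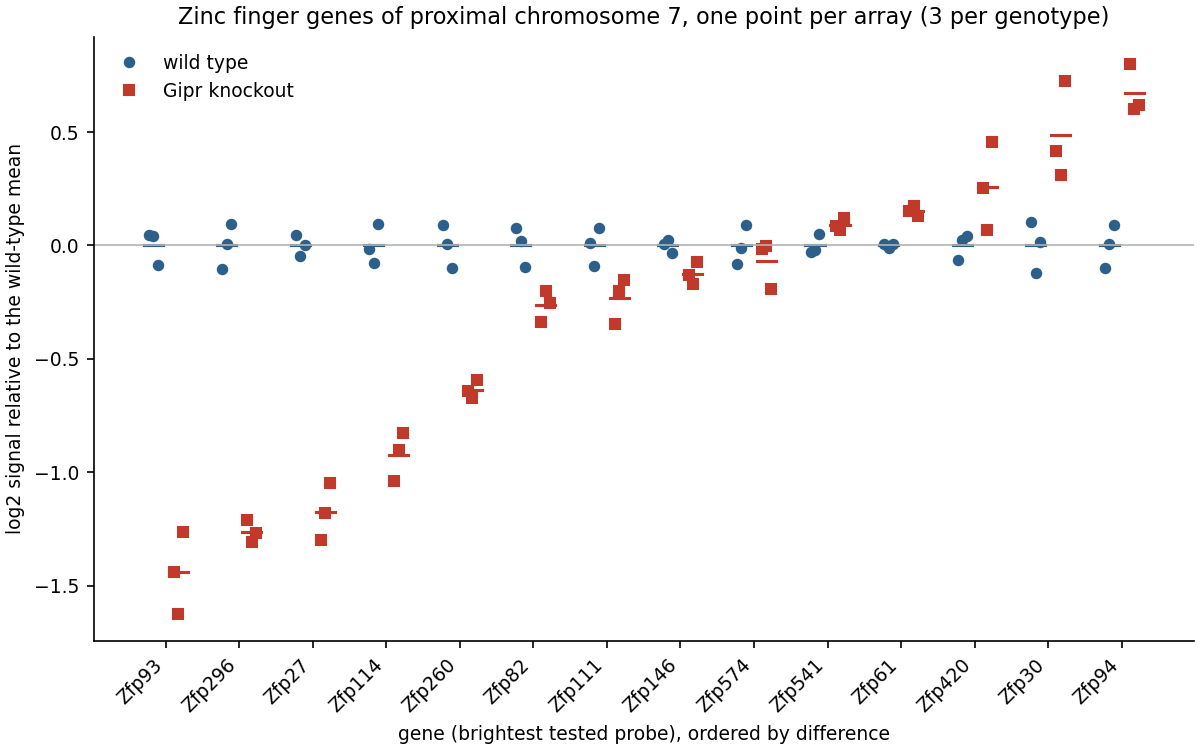
Log2 signal of the brightest tested probe of 14 zinc finger genes, relative to the wild-type mean of that probe, with 1 point per array (blue circles, wild type; red squares, Gipr knockout; 3 each) and bars at the group means. Zfp93, Zfp296, Zfp27, Zfp114 and Zfp260 lie below their wild-type arrays, Zfp94 and Zfp30 above, and Zfp574 overlaps.

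Among members that were not called, 9 more genes had genotypes that did not overlap on their brightest tested probe. With the 4 called genes these are 13 of 34, where 13.1% of the 26969 genes and transcripts tested by their brightest probe did not overlap. Zfp260, a nuclear factor first studied in heart muscle as a partner of Gata4, read 1031.6, 922.3 and 1043.0 in the knockout and 1613.7, 1527.7 and 1472.7 in the wild type. Every knockout array lay well below every wild-type array, and the difference was -0.64 ± 0.07 or 1.55-fold lower. Zfp94 went the other way, with 365.4, 290.7 and 315.1 in the knockout against 184.0, 199.1 and 219.1 in the wild type. All knockout arrays were above all wild-type arrays, at 0.67 ± 0.09 or 1.60-fold higher. Zfp94 lies on the minus strand, in the same cluster as Zfp93.

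Zfp30, a KRAB zinc finger studied in airway inflammation, read 68.4, 58.0 and 82.6 in the knockout and 51.7, 44.5 and 50.8 in the wild type. Knockout replicate 3 was the highest array, the genotypes did not overlap, and the difference was 0.48 ± 0.12 or 1.40-fold higher. With normexp it was 0.19. Smaller differences without overlap were seen for Zfp82 at -0.26 ± 0.07 (667.1, 668.5 and 690.6 against 836.5, 806.3 and 772.2) and for Zfp111 at -0.23 ± 0.08 (123.0, 124.2 and 137.1 against 148.1, 138.4 and 161.5). Zfp146, the gene made almost only of fingers, read 249.7, 221.7 and 253.5 against 258.5, 262.3 and 261.6, a difference of -0.12 ± 0.06. In Zfp111 and Zfp146 the lowest wild-type array and the highest knockout array lay close together. The dimmer Zfp82 probe gave -0.16 ± 0.11 with overlapping genotypes (-0.08 without knockout replicate 1, -0.28 without knockout replicate 3).

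Zfp61 and Zfp541 showed narrow but separate groups. Zfp61 read 4890.6, 4536.7 and 4701.0 in the knockout and 4160.3, 4122.8 and 4325.0 in the wild type, a difference of 0.15 ± 0.05. Its second tested probe gave 0.18 ± 0.07 and also did not overlap. Zfp541, which acts in the exit from meiosis, read 2159.9, 1948.1 and 2163.6 against 1879.2, 1892.1 and 2065.8, a difference of 0.09 ± 0.06. The raw signals of Zfp541 overlap, and its groups were apart only after each array was scaled. Zfp574 read 8944.9, 8232.6 and 7722.3 in the knockout and 8029.1, 8452.8 and 9429.8 in the wild type, with overlapping genotypes and a difference of -0.07 ± 0.08. That value was -0.01 without knockout replicate 3, -0.11 without wild-type replicate 1 and -0.02 without wild-type replicate 3.

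Zfp420, the KRAB zinc finger known as Apak that holds back p53, was read in opposite directions by its 2 tested probes. The probe at chr7:30661170-30661229 gave 160.7, 128.9 and 180.8 in the knockout and 121.1, 129.2 and 136.0 in the wild type, a difference of 0.26 ± 0.11 (0.16 without knockout replicate 3). The probe at chr7:30700559-30700618, which holds a finger fragment and which the files place in another transcript, gave 92.6, 78.2 and 87.3 against 93.3, 102.7 and 109.5, a difference of -0.26 ± 0.07. After scaling, the genotypes did not overlap on either probe, higher in the knockout on the first and lower on the second. The Zfp27 probes lie between them on the opposite strand. The mean of both Zfp420 probes gave 0.00.

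Agreement between probes was examined for the 15 genes with 2 or more tested probes. In 10 of them all probes had the same sign. The gap between the lowest and the highest difference was widest for Zfp114 (0.69), Zfp940 (0.56) and Zfp420 (0.52). Zfp940 is named after its values were seen: its probe with the finger fragment, shown above, read 52.0, 40.4 and 39.3 in the knockout and 26.8, 29.0 and 27.1 in the wild type, 0.64 ± 0.11 or 1.56-fold higher and without overlap. Its other probe gave 0.08 ± 0.11 with overlapping genotypes. The narrowest gap was 0.03, for Zfp61, and the gap was 0.26 for Zfp93. Zfp780b, Zfp428, Zfp790 and Zfp59 had probes of both signs, with differences from -0.08 to 0.14 in all of their probes.

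**Figure D3:**
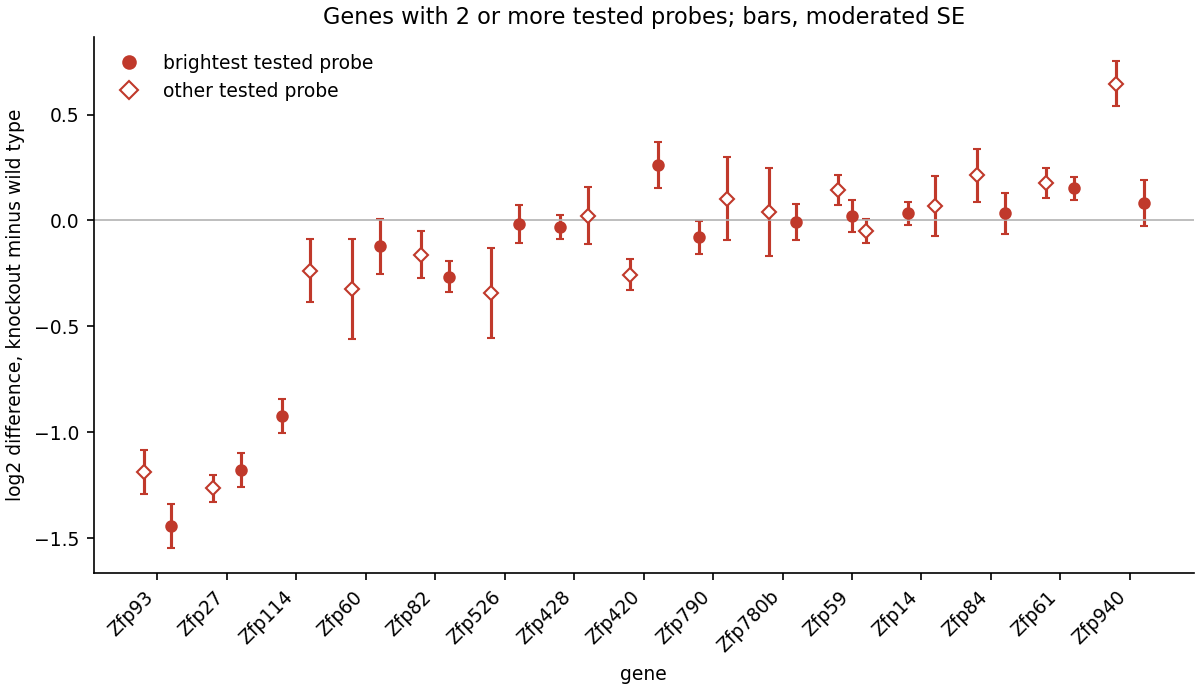
Log2 difference, knockout minus wild type, of every tested probe in the 15 genes with at least 2 tested probes (filled circles, brightest probe; open diamonds, others), with bars of 1 moderated SE. Both probes of Zfp93 and both of Zfp27 lie below -1, while the probes of Zfp114, Zfp420 and Zfp940 differ by more than 0.5.

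Over all 50 tested member probes, 27 were lower and 23 higher in the knockout, with a median difference of -0.02 and quartiles of -0.24 and 0.09. The median over all tested probes was 0.01. In 31 of the 50 the difference was under 0.2 in either direction. The median size of the difference, without its sign, was 0.14 in the members and 0.09 over all tested probes. The genotypes did not overlap in 12 lower and 8 higher member probes, 20 of the 50, against 13.4% of all tested probes (5.54% lower, 7.84% higher). Leaving out 1 library raised both counts, most for all probes without knockout replicate 2, where 25 of the 50 members and 34.3% of all probes did not overlap. The share over all probes was also more than 1.5 times larger without knockout replicate 3 (22.1%, 22 members), wild-type replicate 1 (22.3%, 21 members) or wild-type replicate 3 (29.4%, 25 members). A difference of at least 1.5-fold was reached by 7 lower and 2 higher member probes, or 18.0%, against 1.73% of all (0.928% lower, 0.802% higher). By array, the median deviation of the members from their overall mean was -0.04, -0.07 and 0.03 in the knockout and 0.02, 0.02 and 0.01 in the wild type. These medians overlap between the genotypes.

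The spread within a genotype was small for most members. The SD over 3 arrays ran from 0.01 to 0.44 in the wild type, with a median of 0.09, and from 0.02 to 0.58 in the knockout, with a median of 0.13 (log2). The widest knockout spread belonged to Zfp36, which read 7.5, 14.4 and 13.8 against 13.3, 14.8 and 18.6. Its genotypes overlapped, its difference was -0.44 ± 0.29, and it was not well above background on 1 knockout array. Zfp84 is printed on each array 10 times, which measures the error of a spot: the log2 SD over those spots was 0.08 to 0.14, and their medians were 125.5, 120.3 and 150.9 in the knockout and 130.9, 129.3 and 120.0 in the wild type.

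Along the chromosome, the genes fell into 2 single genes and 3 clusters when a gap of over 1 Mb was taken as a boundary. Zfp541 and Zfp296 stood alone. The first cluster, chr7:24892175-26011877, holds 14 genes: Zfp180, Zfp112, Zfp235, Zfp114, Zfp111, Zfp109, Zfp108, Zfp93, Zfp61, Zfp94, Zfp428, Zfp575, Zfp574 and Zfp526. Of its 17 tested probes 11 were lower and 6 higher, with 3 called, a median of -0.03 and a range from -1.44 to 0.67. Its neighbours thus differed in direction, with Zfp114 and Zfp93 at the low end and Zfp94 at the high end.

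The second cluster, chr7:28535745-29161999, holds Zfp60, Zfp626, Zfp59, Zfp607 (now Zfp607a), Zfp780b and Zfp36. Its 10 tested probes were split evenly, with 5 lower and 5 higher, 0 called by limma, and a range from -0.44 to 0.14. The third cluster, chr7:30562247-30946346, holds 14 genes: Zfp84, Zfp30, Zfp790, Zfp940, Zfp420, Zfp27, Zfp74, Zfp568, Zfp14, Zfp82, Zfp566, Zfp260, Zfp382 and Zfp146. Of its 21 tested probes 10 were lower and 11 higher, with 2 called, both of Zfp27, and a range from -1.26 to 0.64. Zfp568, the KRAB zinc finger that silences a placental Igf2 promoter, gave 0.15 ± 0.13. At the edges of the chosen window, Zfp541 (0.09) and Zfp146 (-0.12) were the outermost members, while Zfp446 (0.17 and 0.13 on its 2 probes) and Zfp507 (0.06) lay just outside it.

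**Figure D4:**
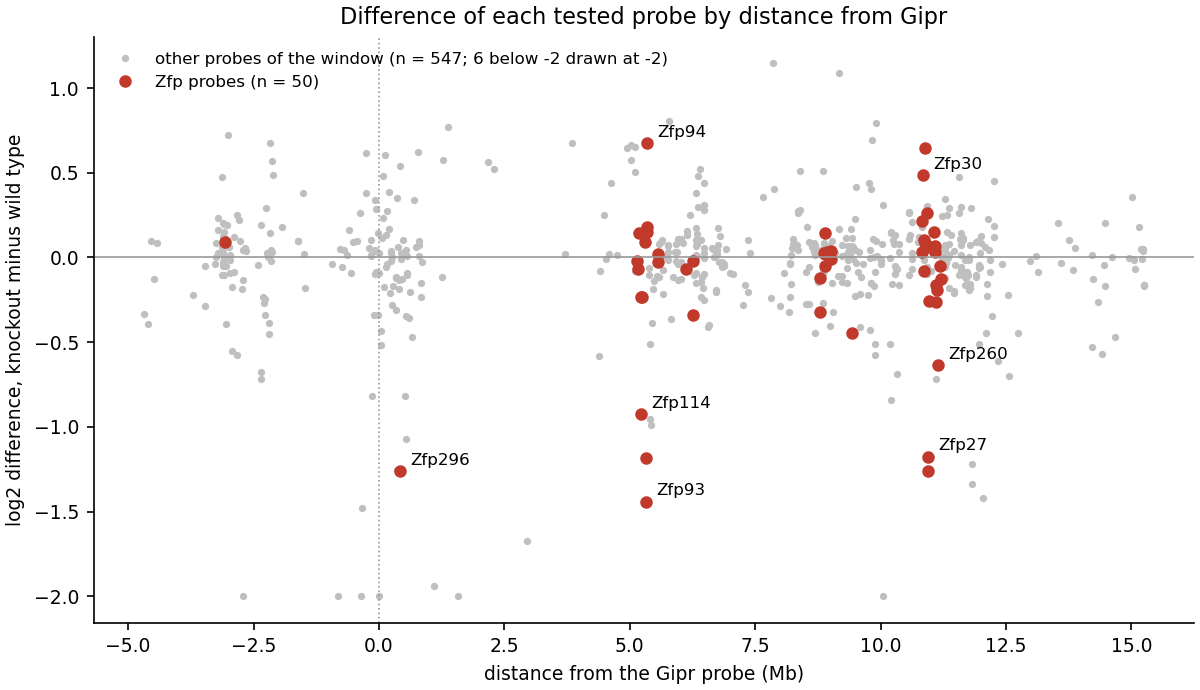
Log2 difference, knockout minus wild type, of each tested probe in the chromosome 7 window against its distance in Mb from the Gipr probe (red, 50 Zfp probes; grey, 547 other probes, of which 6 below -2 are drawn at -2). The Gipr probe is among the 6 drawn at -2. Zinc finger probes far below and above 0 lie beside members near 0 in the clusters about 5 and 11 Mb away.

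Other parts of the array show where the members' values stand. The 390 tested Zfp probes on other chromosomes had a median difference of 0.02, and 12.8% of them did not overlap (19 lower, 31 higher). None of those 390 was called by limma, with 21 at an unadjusted p under 0.05, and 0.769% reached 1.5-fold. The 74 tested Zfp probes on chromosome 7 outside the window had a median of 0.06, 17.6% did not overlap, and 0 were called by limma, with 5 at an unadjusted p under 0.05. Of all these probes only those of Zfp606 (-0.87 ± 0.34), Zfp69 (-0.86 ± 0.74), Zfp820 (0.70 ± 0.21) and Zfp282 (1.04 ± 0.39) reached 1.5-fold, with limma adjusted p of 0.62 to 0.75. The 547 tested probes of the window that carry other names had a median of 0.01, with 28.5% without overlap, 9 called (all lower) and 7.31% at 1.5-fold or more. The Gipr probe itself belongs to this set and is among the 9 called. Differences of that size were therefore also found around the zinc finger genes within the window. Splitting the window in 2 gave 2 called of 8 tested member probes below base 25000000 and 4 called of 42 above it. Of the other probes of the window, 6 of 187 were called below that base (3.21%, with 41.2% without overlap) and 3 of 360 above it (0.833%, with 21.9% without overlap). The 6 include the Gipr probe.

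**Figure D5:**
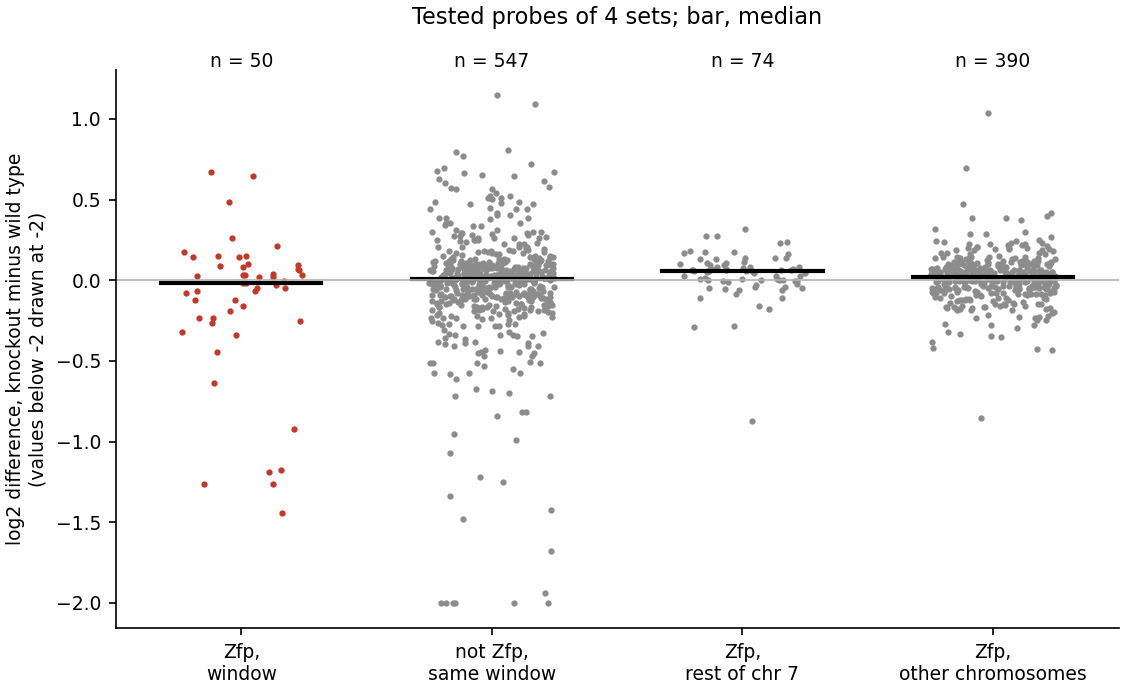
Log2 difference, knockout minus wild type, of every tested probe (points) in 4 sets, with the median as a bar; 6 values below -2 are drawn at -2. The Gipr probe is among those 6, in the set of other probes of the window. The values run from -1.44 to 0.67 in the Zfp probes of the window (n = 50), from -4.53 to 1.15 in other probes of the window (n = 547), from -0.87 to 0.32 in Zfp probes on the rest of chromosome 7 (n = 74) and from -0.86 to 1.04 in Zfp probes on other chromosomes (n = 390).

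Probe and promoter features were then set beside the differences. Of the 10 probes with a finger fragment 3 were called, with a median difference of -0.16, and of the other 40 tested probes 3 were called, with a median of -0.01, beside 0.0463% called over all tested probes. The 3 called probes with a fragment are 2 of Zfp93 and the Zfp114 probe that resembles 1 of them, so they are not separate observations. Among genes with a promoter entry, the 16 tested genes with the 13-base motif had 10 lower and 6 higher brightest probes, a median of -0.04, 1 called (Zfp93) and 5 without overlap. The 14 without an exact match had 7 lower and 7 higher, a median of 0.00, 2 called (Zfp27 and Zfp296) and 7 without overlap. By brightest probe, 19 of all 26969 tested genes and transcripts were called and 13.1% did not overlap, and nothing is read from the members' counts. Genes with and without an exact match to the motif were thus found on both sides of 0.

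The proteins through which KRAB domains silence chromatin were examined as a list of 22 genes, all of them tested. The list also holds Zfp57, itself a KRAB zinc finger, which counts among the Zfp probes on other chromosomes as well. By limma 0 were called, with 2 at an unadjusted p under 0.05. The mean was lower in the knockout for 5 and higher for 17, with a median difference of 0.04. Trim28 itself, the scaffold that KRAB binds, gave 0.08 ± 0.06 (limma adjusted p = 0.726). The 4 of lowest p were Fam208a (Tasor, of the HUSH silencing complex) at 0.24 ± 0.07 (limma adjusted p = 0.613), Pphln1 (Periphilin, of the same complex) at -0.19 ± 0.08 (0.649), Atrx, a chromatin remodeller, at 0.21 ± 0.13 (0.693), and Morc2a, a HUSH-linked ATPase, at 0.10 ± 0.07 (0.708). None of these 4 passed the test.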

How the data were processed

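Per the labels, Cy3-labelled cRNA of 100 ng total RNA was hybridised to 1-colour Agilent arrays. Per the file headers, Feature Extraction 10.7.3.1 made the deposited processed signal, a background-corrected intensity on a linear scale, and probe positions are on mm9. Its log2 was taken, outlier spots (117 to 149 per array) were left out, spots of a probe were averaged and each array's 75th percentile was subtracted. Between 70.6% and 76.0% of non-control spots were well above background and 0 were saturated. The authors' value table (46873 entries, also intensity) equals the processed signal times 1 factor per array and served as an alternative. Its centring across genes and the reason for its scaling are not given in the sources used here.

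The genotypes were compared in R 4.3.3 with limma 3.58.1 (lmFit, eBayes, no covariates, two-sided, Benjamini-Hochberg over 38884 probes). The number of arrays limits the precision, and an exact permutation test of 3 against 3 cannot go below p = 0.1. Tested on simulated data for this comparison with 38884 probes, the fit recovered 56% of 100 probes changed by 1 and 93% of 100 changed by 2 on the log2 scale, with 5 false calls in all. Under this adjustment the share recovered depends on how many probes change. The real fit called 18 probes, so the simulated shares need not hold for it and may be too high.

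The members and gene lists were chosen with earlier results of these data known. Values per sample are given for genes with a called probe, up to 12 more whose brightest probe did not overlap, the 4 of highest wild-type signal, and genes whose probes disagreed in sign by over 0.5. Same-numbered replicates did not deviate together (r = 0.06, -0.02 and 0.00). Of the member probes 49 matched RefSeq by accession. Promoters are on GRCm38.p6 and were not placed on mm9. Insl3 was not matched by symbol or accession and was left out of the Leydig list. The marker lists had 0 called genes by limma. Those with no unadjusted count above had 0 (spermatogonia), 0 (spermatocytes), 1 (elongating spermatids), 1 (peritubular myoid cells), 0 (macrophages), 1 (endothelium), 0 (erythroid cells), 0 (epididymis) and 0 (adipose tissue) genes at an unadjusted p under 0.05. Alternatives covered background correction, normalization, filters, probes per gene, variance model, replicate block and leaving out each array.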

Additional observations from a re-analysis of the deposited data

How the results depend on the processing

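Under the alternatives tried, the count of 6 called member probes became 1 without a filter on dim probes (59 tested), 3 with genes as means over their tested probes (genes, of 34) and between 0 and 3 when 1 replicate was left out. It was 2 for the part of the window below base 25000000. With the replicate number as a block it was 0, although the numbers do not pair the samples, and the block changed no median or overlap count. The other alternatives gave 4 to 8 called probes or genes. Over all tested features the count of 18 calls ran from 5 to 35. Zfp27 was called in 14 of 16 alternatives, Zfp296 in 10, Zfp93 in 9, Zfp114 in 5, Zfp260 in 3 and Zfp94 in 2. The 20 member probes without overlap became 13 genes both by the brightest probe and by the mean, since fewer features were counted, and 21 to 25 probes when 1 replicate was left out, with 19.6% to 34.3% over all probes. The median difference stayed between -0.05 and 0.00. Zfp probes on other chromosomes and the cofactors had 0 limma calls in every alternative, with 21 and 2 at an unadjusted p under 0.05 as reported. No called value changed sign. Normexp shrank dim differences, as its offset of 50 does by construction.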
